A study of Mus musculus with 15 samples.

Results

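The tumors harvested on day 7 were set against those harvested on day 3, across all expressed genes. The aim was to describe how expression in tumors given poly(I:C) differed between these harvests. They were chosen by harvest day alone, 3 tumors a day, and made up 6 of the 15 tumors of the series. All tumors were grown under the skin of female BALB/c mice from WEHI-164, a mouse fibrosarcoma cell line, and carried no engineered allele (genotype WT in the labels). Per the labels, the tumors of both days were injected with poly(I:C), 1 µg in 25 µL each day with 6 doses planned. A supplementary legend names a larger daily amount, so the dose is not certain. The day 0 tumors were untreated, and with the tumors of days 1 and 5 they entered the fit and give the levels around this comparison. The labels do not say how many doses a given tumor had received, when it had the last dose or how old the tumor was. Per the study's methods, dosing was daily for at most 6 days and harvest days were counted from the first dose. Day 3 thus fell within the planned course and day 7 after its end. The number of doses, the time since the last dose and the age of the tumor therefore cannot be told apart between the days. None of the 15 tumors was labelled as injected with vehicle, so poly(I:C) and the repeated injection cannot be told apart either. Every tumor came from a single cell line in a single host strain, and p-values measure only the spread between these samples. The labels do not say that replicates were separate mice, while the paper's figure legends give 3 mice per group for the time course.

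Poly(I:C) is a man-made double-stranded RNA and resembles the RNA of replicating viruses. It is sensed by Toll-like receptor 3 in endosomes and by the helicases MDA5 and RIG-I in the cytosol, which start the transcription of type I interferon. Interferon binds its receptor on nearly all cells, and a complex of transcription factors then switches on a large set of interferon-stimulated genes, many of them through a sequence called the interferon-stimulated response element. Several of the genes it switches on encode sensors and transcription factors of the same pathway, and others encode inhibitors that shut it down, so the response rises and falls over days. In a tumor the same period also sees leukocytes enter and leave, and in bulk RNA fewer cells of a type and less RNA per cell cannot be told apart.

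A single tumor of day 3, replicate 1, stood apart, and list medians and most log2 fold changes are given with and without it ("without it" in brackets stands for the fit without that tumor). Total counts of the 6 tumors lay between 23.7 and 27.3 mega-counts. Day 3 replicate 1 had the highest value of the 6 tumors in 38.1% of the 15494 genes tested and the lowest in 40.9%. On the first principal component of the 6 tumors, which held 77.0% of the variance of log2 CPM (counts divided by the library total, on a common scale), it lay at 135.7, with the other day 3 tumors at 17.6 and 2.83 and the day 7 tumors at -62.9, -4.35 and -89.0 for replicates 1, 2 and 3. Ribosomal protein genes took 3.12% of its counts, against 3.93% to 5.64% in the other 5 tumors. Day 7 replicate 2 was the day 7 tumor nearest to day 3 in both this component and the component without day 3 replicate 1, where it lay at 24.4, with the day 3 tumors at 54.2 and 34.3 and the other day 7 tumors at -43.7 and -69.3. The median SD of log2 CPM between tumors of a day was 0.374 on day 3, 0.116 on day 3 without replicate 1 and 0.183 on day 7. No replicate repeated another: the chi-square per degree of freedom between same-day pairs was 18.8 to 284. Vim, the intermediate filament of mesenchymal cells, was high in all 6 tumors, with 2760, 4212 and 4942 CPM on day 3 and 4126, 4709 and 4130 CPM on day 7, so this marker of a fibrosarcoma, which stromal cells also express, was found in each.

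Lower expression on day 7 was carried by a minority of genes and not by the typical gene. Over all 15494 genes the median log2 fold change from day 3 to day 7 was 0.020, with quartiles of -0.52 and 0.30, and 48.4% of genes were below 0. The distribution had a long lower tail, with 2566 genes (16.6%) lower by a factor of 2 or more on day 7 and 292 (1.88%) higher by as much. Without day 3 replicate 1 the quartiles were -0.27 and 0.19, and 1263 genes (8.15%) were lower and 220 (1.42%) higher by that factor. The tail therefore stayed longer on the lower side without that tumor, at less than its former size. The lower genes were more often weakly expressed: of the 3874 genes with the lowest mean CPM 64.7% were lower on day 7 with a median of -0.39, and of the 3874 with the highest mean CPM 33.6% were lower with a median of 0.16. Without day 3 replicate 1 these shares were 59.1% and 40.1%, with medians of -0.14 and 0.056. A weakly expressed gene can pass the filter on low counts through its day 3 tumors alone, and the part of this in the difference was not tested.

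**Figure D1:**
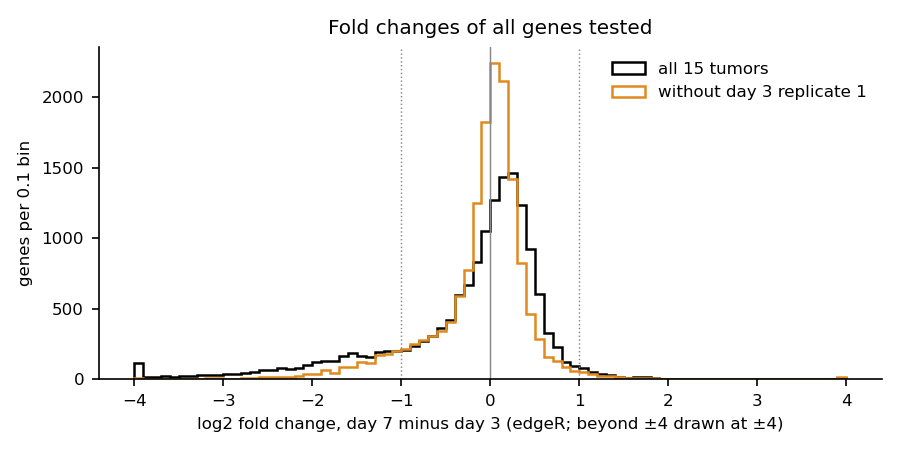
Number of genes per bin of 0.1 (y axis) by edgeR log2 fold change of day 7 against day 3 (x axis), from the fit of all 15 tumors (black) and the fit without day 3 replicate 1 (orange), with genes beyond 4 on either side drawn at the end. The lower tail is longer than the upper in both, with 2566 and 1263 genes past the dotted line at -1 against 292 and 220 past the line at 1.

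No gene passed an adjusted p of 0.05 in the edgeR quasi-likelihood test with Benjamini-Hochberg adjustment, and the smallest adjusted p was 0.0832, shared by 1472 genes. At an unadjusted p under 0.05 there were 5502 genes (35.5%), 3509 lower (22.6%) and 1993 higher (12.9%) on day 7. Leaving out day 3 replicate 1 gave 0 edgeR calls again, and 2433 genes (15.7%) under that unadjusted threshold, 1309 lower (8.45%) and 1124 higher (7.25%). DESeq2 called 3260 genes at an adjusted p under 0.05 (21.6% of those it adjusted), 2336 lower (15.4%) and 924 higher (6.11%), and without day 3 replicate 1 it called 90 (1.09%), 51 lower (0.616%) and 39 higher (0.471%). Of these 90 genes, 85 were also among the 3260. With other tumors left out in turn, edgeR called 2091 genes when day 3 replicate 3 was dropped, 58 for day 1 replicate 3 and 1 for day 7 replicate 2. Dropping day 7 replicates 1 and 3 left 3306 and 2946 genes at an unadjusted p under 0.05. The lack of edgeR calls and the 3260 DESeq2 calls come from the same counts, so the genes below are given by their values in each tumor, their log2 fold change with its standard error (SE) and the count at an unadjusted p under 0.05, and "lower" or "higher" is not a call.

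The number of genes that differed depended on which tumors were paired. With day 3 replicate 1 as the day 3 tumor, 3628, 3218 and 3810 genes were lower by a factor of 2 or more in day 7 replicates 1, 2 and 3. With day 3 replicate 2 the numbers were 1844, 518 and 2263, and with day 3 replicate 3 they were 1628, 382 and 2181. Day 7 replicate 2 was therefore lower than the day 3 tumors in the fewest genes whichever day 3 tumor it was set against. The log2 CPM of the day 3 and day 7 tumors did not overlap in 5119 genes (33%), 2848 lower (18.4%) and 2271 higher (14.7%), and without day 3 replicate 1 in 6027 (38.9%), 3328 lower (21.5%) and 2699 higher (17.4%). Leaving out day 7 replicate 2 instead gave 8155 such genes.

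**Figure D2:**
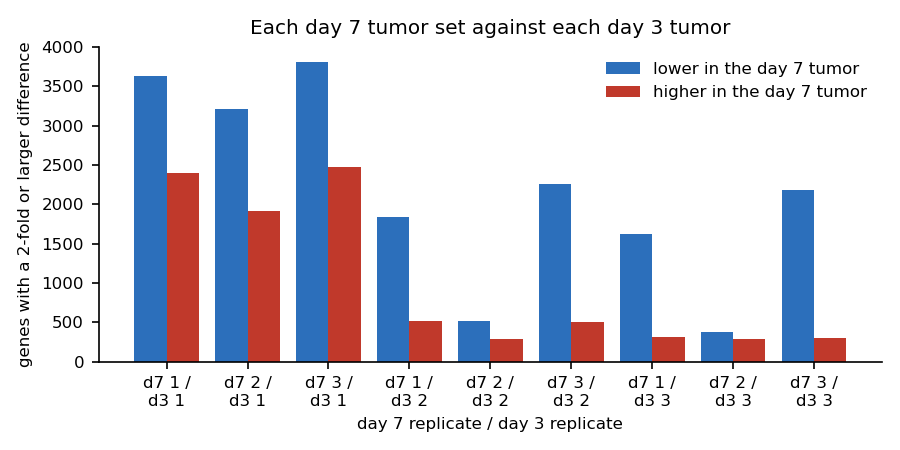
Number of genes (y axis) with a difference of 2-fold or more between single tumors, for each day 7 tumor set against each day 3 tumor (x axis), lower in the day 7 tumor in blue and higher in red. The pairs of day 7 replicate 2 with day 3 replicates 2 and 3 have the fewest lower genes, 518 and 382, and the 3 pairs with day 3 replicate 1 have from 3218 to 3810.

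Lists of genes grouped by function or cell type, 43 in all with 636 genes tested, showed which groups made up the tail. Their medians ran from -4.42 for skeletal muscle to 2.95 for erythroid cells, against 0.020 over all genes. Of the 43 lists, 20 had a median of -1 or lower in the fit of all tumors and 11 without day 3 replicate 1. The antiviral effectors, GTPases, signalling factors and sensors kept their size without that tumor, leukocyte lists kept their direction at a smaller size, and the muscle, collagen and mesenchymal lists lost most of theirs. Lists share some genes, such as Fn1 in the mesenchymal and monocyte lists and Ctla4 in the regulatory T cell and checkpoint lists, and are not independent of each other. Counts of list genes at an unadjusted p under 0.05 are to be read beside the shares over all genes. These shares were 22.6% lower and 12.9% higher, or 8.45% and 7.25% without day 3 replicate 1.

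**Figure D3:**
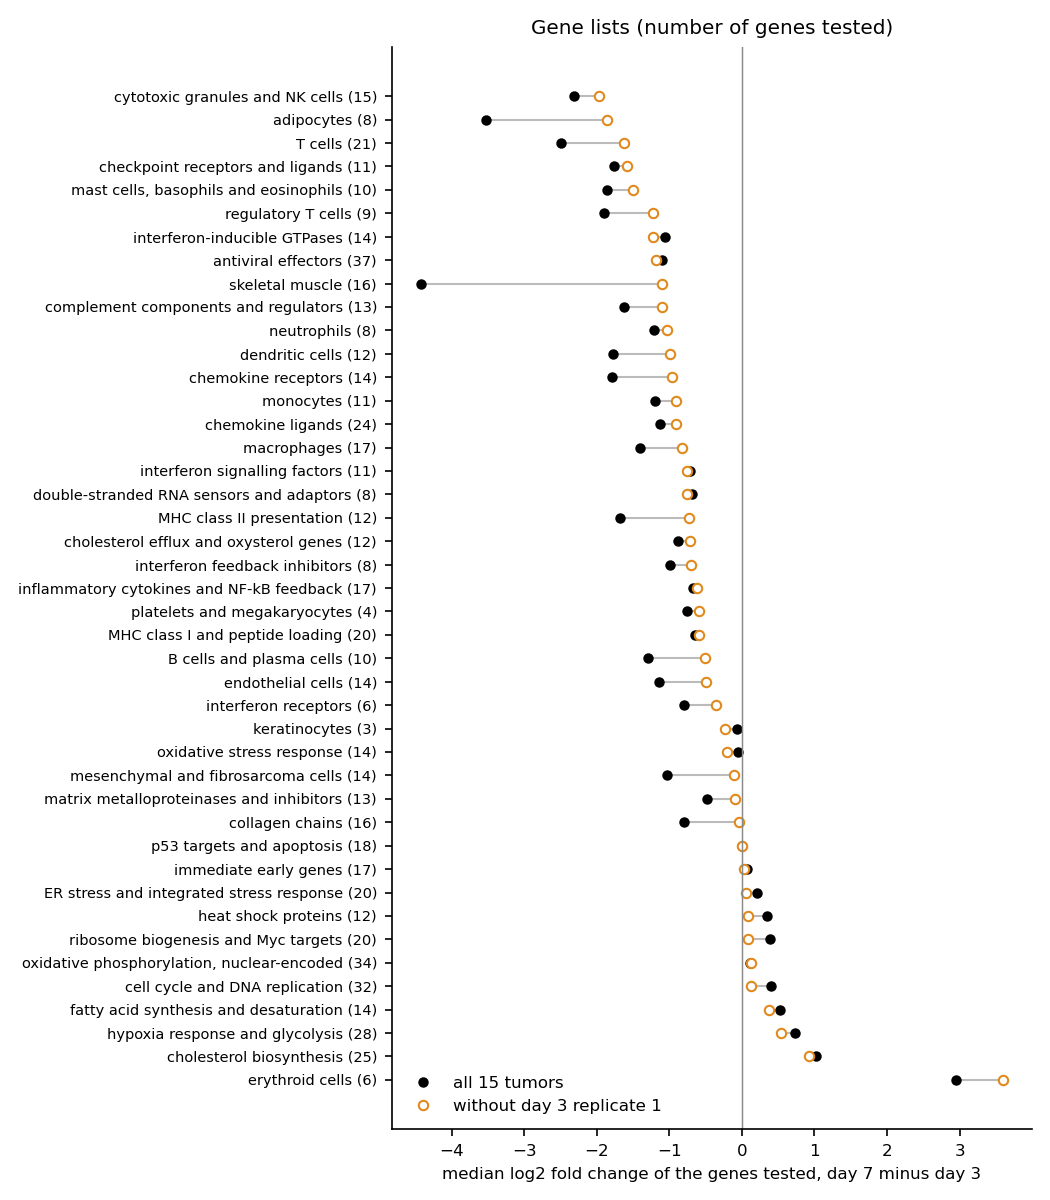
Median log2 fold change, day 7 against day 3 (x axis), of the genes tested in each of the 43 lists (y axis, number of genes tested in brackets), from the fit of all 15 tumors (black) and without day 3 replicate 1 (open orange). The antiviral effectors and GTPases lie at about the same place in both fits, while skeletal muscle moves from -4.42 to -1.10 and erythroid cells from 2.95 to 3.597.

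As a group, the interferon-induced antiviral genes stood lower in every day 7 tumor than in every day 3 tumor. The level of the antiviral effectors, the mean log2 CPM of the list, was 6.51, 7.01 and 6.48 on day 3 and 5.61, 5.75 and 5.56 on day 7, and on day 0 it was 5.41, 5.76 and 5.62. In this list the day 7 tumors thus lay below all 3 day 3 tumors and within the range of the untreated tumors, which did not hold for every interferon list. On day 1 it was 6.36, 6.21 and 7.51, so the day 1 tumors overlapped those of day 3 and day 1 replicate 3 was above all of them. Of the 37 antiviral effectors tested, 31 were lower at an unadjusted p under 0.05, against 22.6% of all genes, and 1 was higher, with a median of -1.10. Without day 3 replicate 1, 35 of 37 were lower at that threshold, against 8.45% of all genes, with a median of -1.18. DESeq2 called 28 of them lower, against 15.4% of all genes it adjusted. Without that tumor it called 15 of the 34 it adjusted, against 1.09% of all genes in either direction.

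Irf7, the transcription factor that amplifies type I interferon production, had the lowest log2 fold change of the signalling factors, a list with a median of -0.71. It lay at 559.8, 579 and 359 CPM on day 3 and 81.2, 125 and 75.7 CPM on day 7 (GRCm38 7:141262706-141266481, minus strand), so the lowest day 3 tumor was above the highest day 7 tumor by more than 2-fold. Its log2 fold change was -2.41 ± 0.51 (SE), and -2.31 ± 0.55 without day 3 replicate 1. Oas3, which makes the 2-5A messenger that activates RNase L (GRCm38 5:120753098-120777661, minus strand), was at 87.3, 159 and 116 CPM on day 3 and 31.8, 50.03 and 32.3 CPM on day 7. Its groups did not overlap either, and its log2 fold change was -1.67 ± 0.39, or -1.84 ± 0.41 without day 3 replicate 1. Bst2, tetherin, which holds budding viruses on the cell surface (GRCm38 8:71534255-71537456, minus strand), stood at 197, 478 and 340 CPM on day 3 and 160.5, 185 and 147 CPM on day 7, and day 3 replicate 1 was the lowest of the day 3 tumors. Because of that tumor its fold change was larger without it, -1.31 ± 0.30 against -1.04 ± 0.33. Oasl2, an OAS-like protein, was at 289, 430.3 and 285 CPM on day 3 and 118, 144 and 124 CPM on day 7, and Dtx3l, a ubiquitin ligase, and Parp14, an ADP-ribosyltransferase, had log2 fold changes of -1.01 and -0.9983 (without day 3 replicate 1, -0.94 and -0.99). Ifi27l2a had the lowest value of the list at -1.90 ± 0.55 (-1.48 without it) and Ifitm1, an interferon-induced membrane protein, the highest at 0.48 ± 0.20, with 46.5, 79.8 and 76.4 CPM on day 3 and 108, 94.8 and 79.9 CPM on day 7. Ifitm1 was the list member higher at an unadjusted p under 0.05, and it was at 0.28 ± 0.17 without day 3 replicate 1.

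Interferon-inducible GTPases, which attack the vacuoles of intracellular pathogens, were lower in all 14 members. Their level was 8.03, 8.34 and 8.26 on day 3 and 6.84, 7.63 and 6.61 on day 7, and the highest day 7 tumor, replicate 2, was below the lowest day 3 tumor. On day 0 it was 7.20, 7.64 and 7.46, and day 7 replicates 1 and 3 lay below that range. All 14 genes were lower than on day 3 at an unadjusted p under 0.05 in both fits, against 22.6% and 8.45% of all genes. The list had medians of -1.06 and, without day 3 replicate 1, of -1.22. Gbp3, a guanylate-binding protein (GRCm38 3:142560026-142573209, plus strand), was at 236, 359 and 295 CPM on day 3 and 124, 183 and 102 CPM on day 7, a log2 fold change of -1.12 ± 0.31 and of -1.25 ± 0.34 without that tumor. Gbp9 was at -1.12 ± 0.25 (-1.04 without it) and Gbp8 was the lowest of the list at -2.07 ± 0.65 (-1.52 without it), while Irgm1, a regulator of this group, was the nearest to 0 at -0.90 ± 0.29 (-1.11 without it). Gbp genes lie in clusters of close paralogs, so their single values are uncertain where kallisto divided reads among them.

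Sensors of double-stranded RNA and receptors of interferon were lower too. Of the 8 sensors and adaptors, 6 were lower at an unadjusted p under 0.05 in both fits, against 22.6% and 8.45% of all genes. The list had medians of -0.69 and -0.75. Tlr3, the endosomal receptor of poly(I:C), was at 31.6, 37.5 and 30.9 CPM on day 3 and 19.4, 19.4 and 15.7 CPM on day 7, a log2 fold change of -0.88 ± 0.22 (-0.90 without it), and Ifih1, which encodes MDA5, was at -0.87 ± 0.21 (-0.91 without it). Zbp1, a sensor of Z-form nucleic acids that can start necroptosis, was the lowest at -1.50 ± 0.37 (-1.62 without it) and Mavs, the mitochondrial adaptor of the helicases, the highest at 0.16 ± 0.11 (0.085 without it). Signalling factors were lower in 11 of 11 genes, 8 of them at an unadjusted p under 0.05, with Stat2 at -1.20 ± 0.31 (-1.26 without it), Irf9 at -0.68 ± 0.17 (-0.63 without it) and Irf3 at -0.23 ± 0.14 (-0.024 without it), and with medians of -0.71 and -0.76 without day 3 replicate 1. The interferon receptors had a median of -0.80 with 5 of 6 lower at an unadjusted p under 0.05, but -0.35 with 2 of 6 without that tumor. Feedback inhibitors had a median of -0.99 with 5 of 8 lower at that threshold, and -0.70 with 3 of 8 without that tumor. Usp18, which blocks the interferon receptor, was among these inhibitors with 42.7, 99.6 and 60 CPM on day 3 and 33.6, 28.97 and 33.01 CPM on day 7, a log2 fold change of -1.08 ± 0.40 and of -1.32 ± 0.41 without that tumor. The ligand genes give little: Ifnb1 had at most 4 counts in any of the 6 tumors, between 0.042 and 0.147 CPM, and was not tested.

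The interferon-stimulated response element was looked for in the promoters of the genes tested. Sequences, from RefSeq on build GRCm38.p6, cover the 250 bases before the start of transcription, and 11077 of the 15494 genes had at least 1. Some genes, such as Gbp3 with 2, had several, and a gene was counted as holding the motif where any of its sequences did. The motif searched, on both strands, was GAAA, any 2 bases and GAAA again (TTTC, any 2 bases and TTTC where it lies on the other strand). The promoters of 3 of the genes above that hold it are shown, with each match in capitals, where overlapping matches run together.
Oas3, chr5:120777660-120777909, minus strand: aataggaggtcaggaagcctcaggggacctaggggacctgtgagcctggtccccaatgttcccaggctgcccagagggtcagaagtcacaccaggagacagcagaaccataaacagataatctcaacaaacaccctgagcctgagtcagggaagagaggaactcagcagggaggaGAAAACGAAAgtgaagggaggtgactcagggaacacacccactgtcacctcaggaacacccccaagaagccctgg
Bst2, chr8:71537473-71537722, minus strand: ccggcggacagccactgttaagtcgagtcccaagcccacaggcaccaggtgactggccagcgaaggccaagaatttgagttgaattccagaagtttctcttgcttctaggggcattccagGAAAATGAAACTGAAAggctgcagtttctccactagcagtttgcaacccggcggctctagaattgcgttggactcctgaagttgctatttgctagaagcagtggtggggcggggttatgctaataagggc
Gbp3, chr3:142559794-142560043, plus strand: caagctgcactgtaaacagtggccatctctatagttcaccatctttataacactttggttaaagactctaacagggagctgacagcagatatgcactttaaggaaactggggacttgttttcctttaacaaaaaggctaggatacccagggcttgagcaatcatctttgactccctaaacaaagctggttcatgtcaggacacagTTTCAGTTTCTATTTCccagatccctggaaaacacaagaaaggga

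The motif stood in a promoter of 3.3% of all 11077 genes. It stood in 5.13% of the genes lower at an unadjusted p under 0.05 and, without day 3 replicate 1, in 8.98% (87 of 969). Of genes higher at that threshold it stood in 3.47% and 3.66%. By list, 11 of 28 antiviral effectors with a promoter held it (39.3%), as did 9 of 9 GTPases, 3 of 17 MHC class I genes (17.6%), 2 of 13 cytotoxic and NK cell genes (15.4%), 1 of 10 signalling factors, 1 of 13 macrophage genes (7.69%) and 0 of 12 T cell genes. It stood in 1 of 17 genes of cholesterol synthesis (5.88%) and in 1 of 26 of hypoxia and glycolysis (3.85%). A match is a description of these letters and not a site of binding.

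**Figure D4:**
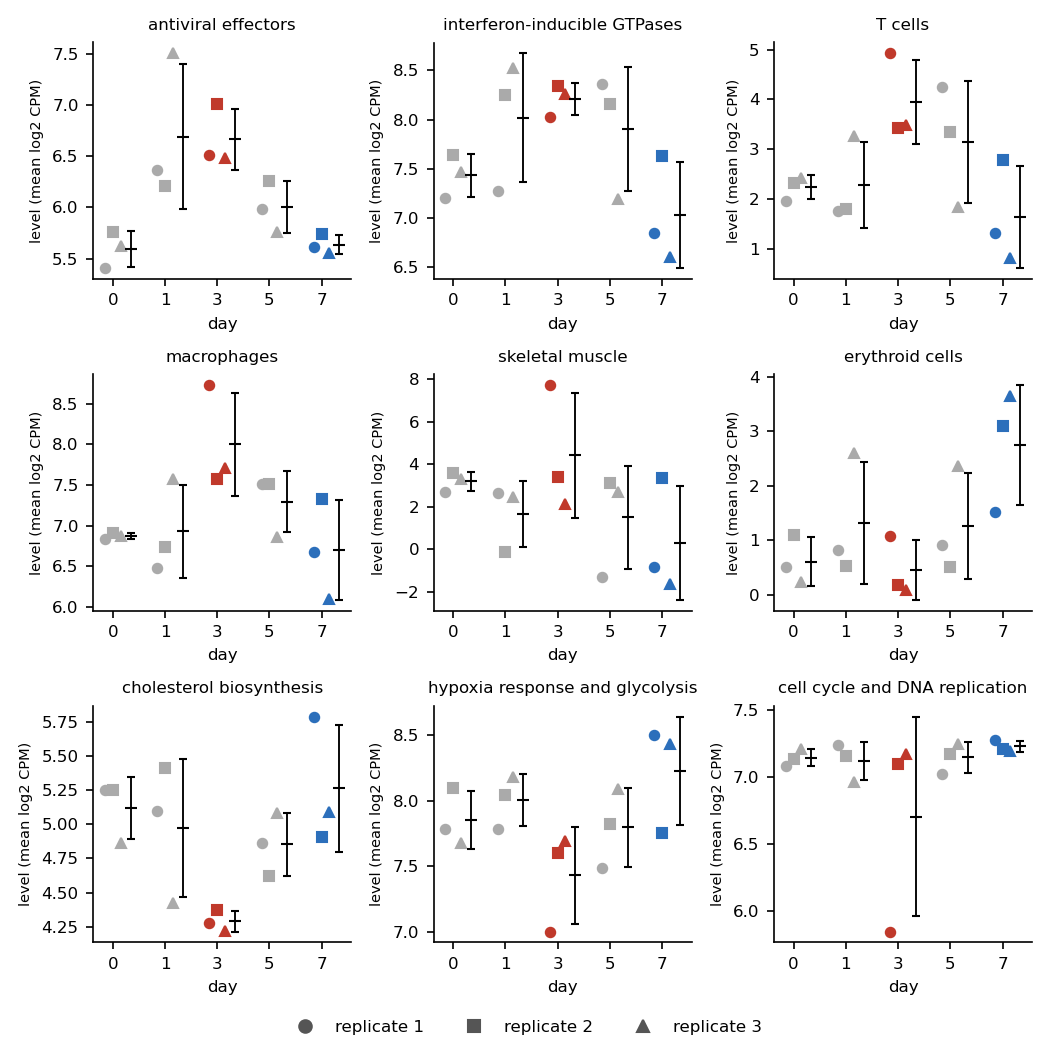
Level of each list, the mean log2 CPM of its genes tested (y axis), in every tumor by harvest day (x axis), with replicates as symbols, day 3 in red, day 7 in blue, other days in grey and mean ± SD in black (n = 3). Antiviral effectors of the day 7 tumors lie between 5.56 and 5.75, below all day 3 tumors, while muscle and cell cycle levels are set apart mainly by day 3 replicate 1.

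Antigen presentation differed between MHC class I and class II genes. MHC class I and peptide loading genes, which show cytosolic peptides to CD8 T cells, were lower in 20 of 20 genes tested. At an unadjusted p under 0.05, 17 were lower and 19 without day 3 replicate 1, against 22.6% and 8.45% of all genes. The medians were -0.65 and -0.59. H2-T23, a nonclassical class I gene, was at 678, 516 and 422 CPM on day 3 and 196, 299 and 164 CPM on day 7, a log2 fold change of -1.29 ± 0.34 (-1.09 without it) with no overlap, and H2-D1 was at -0.74 ± 0.21 (-0.60 without it). These genes have many near-identical paralogs and their single values are uncertain. MHC class II presentation, found mainly on professional antigen-presenting cells, had a median of -1.67 with 9 of 12 lower at an unadjusted p under 0.05, against 22.6% of all genes, and -0.72 with 2 of 12, against 8.45%, without that tumor. Cd74, the invariant chain, was at 4479, 844 and 766 CPM on day 3 and 419, 695 and 161 CPM on day 7, so a single tumor carried most of its fold change of -2.25 ± 0.83, which was -0.91 ± 0.71 without it.

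Chemokine genes were lower in parts. Of 24 ligand genes, 22 were lower, with medians of -1.13 and, without day 3 replicate 1, of -0.90. At an unadjusted p under 0.05, 12 were lower and 8 without day 3 replicate 1, against 22.6% and 8.45% of all genes. Ccl5, which draws T cells and monocytes, was at 129, 178 and 72.3 CPM on day 3 and 6.91, 34.6 and 9.36 CPM on day 7, and its log2 fold change of -2.89 ± 0.69 was -2.87 ± 0.75 without that tumor, with an adjusted p of 0.0476 by DESeq2. Cxcl9, an interferon-gamma-induced attractant of T cells, was at -1.24 ± 0.50 (-1.01 without it). Its sister Cxcl10 was at -0.91 ± 0.46 (-1.21 without it). Cxcl10 had 121, 333 and 249 CPM on day 3 and 90.3, 171 and 114 CPM on day 7, and overlapped through day 3 replicate 1. Ccl2, which draws monocytes, was at 78.4, 310 and 245 CPM on day 3 and 177, 236 and 207 CPM on day 7. It did not separate the days either. Ccl2 had a log2 fold change of -0.032 and of -0.42 without day 3 replicate 1, its lowest day 3 value. Chemokine receptors had medians of -1.79 and -0.96. Cx3cr1, the fractalkine receptor of monocytes and macrophages, was the receptor with the highest value, at 1.07 ± 0.53 (1.13 without it). Inflammatory cytokine and NF-kB feedback genes had medians of -0.67 and -0.61 with 4 of 17 lower at an unadjusted p under 0.05, close to the 22.6% of all genes. Ptgs2, which encodes the cyclooxygenase COX-2, was higher instead, at 36.6, 117 and 121 CPM on day 3 and 190.2, 149 and 263 CPM on day 7, and its log2 fold change of 1.14 ± 0.41 was 0.77 ± 0.33 without that tumor.

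T cell and cytotoxic genes were lower by more than the interferon genes, and the day 7 tumors differed among themselves. The T cell level was 4.93, 3.43 and 3.48 on day 3 and 1.31, 2.78 and 0.82 on day 7. Day 7 replicate 2 lay between its fellow day 7 tumors and the day 3 tumors, and day 3 replicate 1 lay far above the rest. The T cell list had 20 of 21 genes lower at an unadjusted p under 0.05 and 11 without day 3 replicate 1, against 22.6% and 8.45% of all genes. Its medians were -2.49 and -1.62, and without day 7 replicates 1, 2 and 3 they were -2.17, -3.45 and -2.08. Cd4, the coreceptor of helper T cells, was at 74.9, 14.4 and 10.6 CPM on day 3 and 1.83, 9.09 and 1.17 CPM on day 7, with a log2 fold change of -3.04 ± 1.01 and of -1.62 ± 0.91 without that tumor. Cd8a, the coreceptor of cytotoxic T cells, was at 48.2, 16.3 and 23.5 CPM on day 3 and 3.78, 12.7 and 2.88 CPM on day 7, and Cd3e, part of the T cell receptor complex, was at 28.5, 6.65 and 9.96 CPM on day 3 and 1.38, 4.296 and 0.71 CPM on day 7. Cd8a and Cd3e did not overlap between the days, and their log2 fold changes were -2.18 and -2.81, or -1.61 and -1.95 without day 3 replicate 1. Tcf7, a transcription factor of naive and memory T cells that other cells also express, was the highest of the list at 0.32 ± 0.20 (0.12 without it).

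Cytotoxic granule and NK cell genes were lower in 15 of 15 genes at an unadjusted p under 0.05, and in 9 without day 3 replicate 1. Of all genes 22.6% and 8.45% were so, and the medians of the list were -2.32 and -1.96. Gzmb, granzyme B, was at 72.6, 142 and 79.6 CPM on day 3 and 9.64, 39.5 and 9.19 CPM on day 7, and here day 3 replicate 1 was the lowest of its day. Its log2 fold change was -2.33 ± 0.67 and -2.50 ± 0.72 without that tumor. Ifng, interferon gamma, was at 5.55, 8.31 and 5.29 CPM on day 3 and 0.691, 3.16 and 0.71 CPM on day 7, a log2 fold change of -2.06 ± 0.73, and of -2.15 ± 0.80 without that tumor. Both genes were lowest in day 7 replicates 1 and 3 and higher in replicate 2, still below every day 3 tumor. Regulatory T cell genes had medians of -1.90 and -1.23, and Foxp3, their transcription factor, was at 13.3, 4.04 and 5.83 CPM on day 3 and 2.48, 2.47 and 1.42 CPM on day 7. Foxp3 did not overlap between the days, and its log2 fold change was -1.86 ± 0.66, or -1.20 ± 0.66 without day 3 replicate 1. Checkpoint genes had medians of -1.76 and -1.58. Cd274, which encodes PD-L1, the ligand that restrains T cells, was at 201, 199 and 177 CPM on day 3 and 38.4, 106 and 43.2 CPM on day 7. Its log2 fold change of -1.62 ± 0.54 was -1.58 ± 0.60 without that tumor.

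The myeloid, B cell and granulocyte lists also had medians below 0, but in the B cell and neutrophil lists the level of day 7 replicate 2 was above that of day 3 replicate 3. Ptprc, CD45, the leukocyte common antigen, was at 704, 313 and 336 CPM on day 3 and 127, 232 and 65.9 CPM on day 7, a log2 fold change of -1.67 ± 0.49 and -1.19 ± 0.49 without day 3 replicate 1. Macrophage genes had medians of -1.41 and -0.82. Of 17 genes, 15 were lower at an unadjusted p under 0.05 and 7 without that tumor, against 22.6% and 8.45% of all genes. The level of the list was 8.73, 7.57 and 7.71 on day 3 and 6.68, 7.33 and 6.10 on day 7. The day 3 tumors all lay above the day 7 tumors, and day 7 replicate 3 was the lowest. Adgre1, the F4/80 antigen, was at -1.50 ± 0.44 (-1.03 without it), and Mrc1, the mannose receptor, was at 368, 154 and 167 CPM on day 3 and 195, 219 and 182 CPM on day 7. Mrc1 was the list member with the value nearest 0, -0.21, and it was 0.32 without day 3 replicate 1, the reverse sign. Monocyte genes had medians of -1.19 and -0.91. At an unadjusted p under 0.05, 6 of 11 were lower and 1 higher, against 22.6% and 12.9% of all genes. Without that tumor 3 were lower and 1 higher, against 8.45% and 7.25%. Their summed level overlapped between the days, at 2247, 1501 and 1522 CPM on day 3 and 1910, 1424 and 1899 CPM on day 7. Ly6c2, a surface protein of inflammatory monocytes, was at 100.1, 92.7 and 37.99 CPM on day 3 and 12.7, 21.8 and 10.7 CPM on day 7, with no overlap and a log2 fold change of -2.35 ± 0.63, or -2.11 ± 0.68 without that tumor. Dendritic cell genes had medians of -1.78 and -0.99, B and plasma cell genes of -1.29 and -0.51, neutrophil genes of -1.21 and -1.03 (and of -2.22 without day 7 replicate 2), and mast cell, basophil and eosinophil genes of -1.85 and -1.50. Without day 3 replicate 1, 0 of 12 dendritic cell, 0 of 10 B cell and 0 of 8 neutrophil genes were at an unadjusted p under 0.05 in edgeR, and DESeq2 called 0 in each, with an adjusted p given to 1, 2 and 2 of them. Cpa3, the mast cell carboxypeptidase, was at 152, 87.3 and 64.2 CPM on day 3 and 23.6, 46.2 and 11.9 CPM on day 7, and its groups did not overlap. Complement genes, made in part by macrophages, had medians of -1.62 and -1.09. At an unadjusted p under 0.05, 13 of 13 were lower and 7 of 13 without that tumor, against 22.6% and 8.45% of all genes. Cfb, factor B of the alternative pathway, was at 878, 580.4 and 394 CPM on day 3 and 67.6, 213 and 52.7 CPM on day 7, a log2 fold change of -2.48 ± 0.67 and -2.12 ± 0.71 without that tumor. Genes of cholesterol efflux and oxysterol response, which macrophages express strongly, had medians of -0.88 and -0.71, and Abcg1, a sterol transporter, was at 399, 114 and 115 CPM on day 3 and 16.6, 66.9 and 16.5 CPM on day 7, a log2 fold change of -2.65 ± 0.80 and of -1.77 ± 0.76 without day 3 replicate 1.

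**Figure D5:**
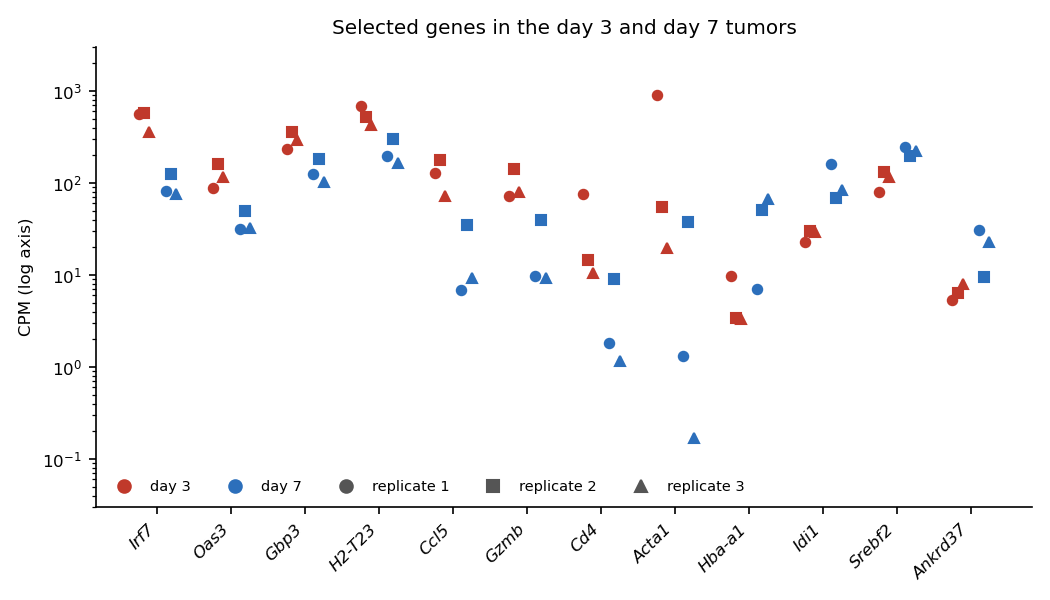
CPM on a log axis (y axis) of 12 genes (x axis) in each day 3 tumor (red) and each day 7 tumor (blue), with replicates as symbols. Irf7, Oas3 and the granzyme gene Gzmb separate the days in all tumors, Acta1 is high mainly in day 3 replicate 1, and Idi1 and Srebf2 are higher in all day 7 tumors.

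The stroma and neighbouring tissue rested on single tumors. Acta1, skeletal muscle actin, was at 894, 54.6 and 19.7 CPM on day 3 and 1.301, 37.5 and 0.167 CPM on day 7. Day 3 replicate 1 was far above the rest, and day 7 replicate 2 overlapped the other day 3 tumors. Skeletal muscle had a summed level from 94.7 to 4728 CPM on day 3 and from 8.901 to 230 CPM on day 7, and 16 of its 16 genes were tested. Its median of -4.42 was -1.10 without day 3 replicate 1, with 0 of 16 genes then at an unadjusted p under 0.05 in edgeR and 0 called by DESeq2, which gave an adjusted p to 1 of them. In 16 of 16 muscle genes the days overlapped, and without day 7 replicate 2 the median of the list was -8.32. Adipocyte genes had a summed level from 37.5 to 314 CPM on day 3 and from 13.1 to 43.5 CPM on day 7, with 8 of 10 tested, and medians of -3.52 and -1.85. Adipoq, adiponectin, was at 14.97, 2.43 and 0.0778 CPM on day 3 and 0.0813, 0.722 and 0 CPM on day 7, and Cidec, a lipid droplet protein, was listed at 0 in day 7 replicates 1 and 3. Muscle and fat genes moved with the same tumors as the T cell and macrophage genes, and their part in those differences was not tested.

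Collagen, mesenchymal and vessel genes also depended on day 3 replicate 1. The collagen chains had medians of -0.80 and -0.039 without it. Col1a1, the main chain of type I collagen and a member of the mesenchymal list, was at 5812, 986 and 721 CPM on day 3 and 664, 865 and 487 CPM on day 7, so without that tumor the log2 fold change went from -1.90 ± 0.73 to -0.34 ± 0.52. Col18a1, which carries endostatin, was higher on day 7 in all tumors, at 309, 339 and 303 CPM on day 3 and 441, 408 and 478 CPM on day 7, and its log2 fold change was 0.48 ± 0.17, or 0.47 ± 0.19 without that tumor. The mesenchymal list had medians of -1.03 and -0.11, with Vim at 0.12 and -0.074, the reverse sign, and endothelial genes of -1.14 and -0.49. Pecam1, CD31 of vessel walls, was at -1.51 ± 0.46 and -0.91 ± 0.42, and Flt1, a receptor of VEGF, at -0.37 ± 0.18 and -0.16 ± 0.17. Metalloproteinases and inhibitors had medians of -0.48 and -0.10. Mmp2, gelatinase A of stromal cells, was at -3.40 ± 1.24 and -1.29 ± 1.05, but Mmp10, stromelysin 2, was higher at 1.05, 4.08 and 2.57 CPM on day 3 and 7.77, 6.501 and 12.2 CPM on day 7. Mmp10 did not overlap between the days and its log2 fold change was 1.78 ± 0.41, or 1.41 ± 0.33 without that tumor.

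Genes of cholesterol synthesis were among those higher on day 7. Cells make cholesterol from acetyl-CoA along the mevalonate pathway, and the transcription factor SREBP2 switches its enzymes on when sterol is scarce. The level of the list was 4.28, 4.37 and 4.22 on day 3 and 5.79, 4.91 and 5.09 on day 7, and 5.25, 5.25 and 4.86 on day 0. Every day 7 tumor was above every day 3 tumor, and the day 3 tumors were the low ones when set beside the untreated tumors. Of 25 genes, 18 were higher at an unadjusted p under 0.05, against 12.9% of all genes, and 20 without day 3 replicate 1, against 7.25%, with medians of 1.02 and 0.92. DESeq2 called 17 of them higher, against 6.11% of all genes it adjusted. Without that tumor it called 10 of the 19 it adjusted, against 1.09% of all genes in either direction. Idi1, isopentenyl diphosphate isomerase, was at 22.9, 30.03 and 29.01 CPM on day 3 and 160.5, 68.4 and 84.5 CPM on day 7, and Srebf2, which encodes SREBP2, was at 79.7, 132 and 115 CPM on day 3 and 249, 195 and 219.9 CPM on day 7. In both genes the days did not overlap, day 7 replicate 1 was the highest and day 7 replicate 2 the lowest of its day. The log2 fold changes of Idi1 and Srebf2 were 1.94 ± 0.43 and 1.02 ± 0.21, or 1.83 ± 0.50 and 0.85 ± 0.19 without day 3 replicate 1. Hmgcs1, the enzyme that makes HMG-CoA, was at 1.33 ± 0.37 and 1.43 ± 0.43, and Sqle, squalene epoxidase, at 1.49 ± 0.35 and 1.25 ± 0.36.

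The promoter of Hmgcs1, one of the 17 with a promoter sequence in this list, is shown because it was the one among them with a match to the sterol regulatory element searched, TCAC, any base and CCAC on either strand, in capitals.
Hmgcs1, chr13:119690101-119690350, plus strand: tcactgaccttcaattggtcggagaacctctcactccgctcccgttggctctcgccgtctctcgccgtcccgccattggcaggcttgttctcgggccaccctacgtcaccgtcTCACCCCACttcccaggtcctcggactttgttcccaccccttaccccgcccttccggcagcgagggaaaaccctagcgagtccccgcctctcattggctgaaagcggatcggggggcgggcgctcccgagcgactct
The motif stood in a promoter of 1.28% of all 11077 genes and of 1 of the 17 of this list (5.88%). No match says only that these letters are not in the 250 bases.

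Fatty acid synthesis and desaturation genes were higher in part, with medians of 0.52 and 0.37. The level of the list was 5.82, 5.93 and 5.86 on day 3 and 6.40, 6.18 and 6.24 on day 7. On day 0 it was 6.26, 6.17 and 6.01, so the day 3 tumors lay below the untreated range and day 7 replicates 2 and 3 within it. At an unadjusted p under 0.05, 8 of 14 were higher, or 7 without day 3 replicate 1, against 12.9% and 7.25% of all genes. Fads2, the delta-6 desaturase, was at 10.9, 18.6 and 17.4 CPM on day 3 and 53.03, 30.7 and 37.6 CPM on day 7, a log2 fold change of 1.37 ± 0.31 and 1.18 ± 0.32 without that tumor. Scd2, a stearoyl-CoA desaturase, was at 1.04 ± 0.28 and 0.92 ± 0.31.

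Hypoxia and glycolysis genes were higher in 28 of 28 members. The level of the list was 7.00, 7.60 and 7.69 on day 3 and 8.50, 7.76 and 8.43 on day 7. The day 7 tumors lay above the day 3 tumors, with day 7 replicate 2 near day 3 replicates 2 and 3. On day 0 it was 7.79, 8.10 and 7.68. Day 7 replicate 2 lay within that range and day 7 replicates 1 and 3 above it, while day 3 replicates 1 and 2 lay below it. At an unadjusted p under 0.05, 22 were higher and 19 without day 3 replicate 1, against 12.9% and 7.25% of all genes. The list had medians of 0.73 and 0.54. Ankrd37, a target of the hypoxia-inducible factor, had the largest difference of the list at 5.39, 6.43 and 7.97 CPM on day 3 and 30.99, 9.58 and 23.03 CPM on day 7, a log2 fold change of 1.68 ± 0.41 and 1.57 ± 0.47. Egln3, an oxygen-sensing prolyl hydroxylase that HIF itself induces, was at 34.96, 93.3 and 108 CPM on day 3 and 314, 143 and 241 CPM on day 7, and Ddit4, an inhibitor of mTORC1, was at 29.9, 39.4 and 47.2 CPM on day 3 and 125, 57.9 and 113 CPM on day 7. All 3 genes were higher in every day 7 tumor than in every day 3 tumor, and day 7 replicate 2 was the nearest to day 3. Vegfa, the growth factor of vessels, was at 0.71 ± 0.30, and at 0.45 ± 0.27 without that tumor, with overlap. Aldoa, aldolase, was the lowest of the list at 0.10 ± 0.13 (0.11 without it).

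Erythroid genes were higher on day 7 from low values. Hbb-bs, adult beta-globin, was at 10.3, 4.89 and 4.67 CPM on day 3 and 14.1, 56.3 and 96.6 CPM on day 7, and Hba-a1, alpha-globin, was at 9.82, 3.38 and 3.34 CPM on day 3 and 7.08, 51.1 and 67.6 CPM on day 7. The days overlapped for Hba-a1 through day 3 replicate 1 and day 7 replicate 1, and replicates 2 and 3 of day 7 were the high ones. The summed level of the list ran from 10.7 to 28.8 CPM on day 3 and from 29.7 to 222 CPM on day 7. Single tumors of other days were high too, with a mean log2 CPM of 2.61 in day 1 replicate 3 and 2.36 in day 5 replicate 3. Both lay above day 7 replicate 1 at 1.53 and below day 7 replicates 2 and 3 at 3.09 and 3.64. Of 6 genes tested of 10, 5 were higher at an unadjusted p under 0.05 in both fits, against 12.9% and 7.25% of all genes. The medians were 2.95 and, without day 3 replicate 1, 3.597. In 3 genes every day 7 tumor was above every day 3 tumor, or in 5 without that tumor, against 14.7% and 17.4% of all genes. The log2 fold change of Hbb-bs was 3.08 ± 0.96 and 3.55 ± 1.17. Alpha- and beta-globin genes have near-identical copies, so their single values are uncertain. Slc4a1 and Klf1, erythroid markers, did not pass the filter on low counts. Platelet genes had 4 genes tested with medians of -0.76 and -0.60, and keratinocyte genes had 3 of 10 tested with medians of -0.06 and -0.23.

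The medians of the growth and stress lists lay between -0.20 and 0.13 once day 3 replicate 1 was left out, though single genes still differed. Cell cycle and DNA replication genes had a level of 5.85, 7.10 and 7.17 on day 3 and 7.28, 7.21 and 7.20 on day 7. The other 5 tumors lay within a narrow band and day 3 replicate 1 lay below it, so the median of 0.40 was 0.13 without it. Mki67, a marker of cycling cells, was at 226, 359 and 496 CPM on day 3 and 668, 475 and 551 CPM on day 7. Ribosome biogenesis and Myc target genes had medians of 0.39 and 0.088, heat shock genes of 0.35 and 0.079, and ER stress genes of 0.21 and 0.062. The p53 targets were at 0.0089 and 0.0077, nuclear-encoded oxidative phosphorylation at 0.11 and 0.12, and the oxidative stress response at -0.054 and -0.20. Immediate early genes had medians of 0.076 and 0.028. At an unadjusted p under 0.05, 6 of 17 were higher, or 5 without day 3 replicate 1, against 12.9% and 7.25% of all genes. Ier3, a survival gene induced by NF-kB, was at 21.7, 44.2 and 38.9 CPM on day 3 and 94.1, 57.4 and 88.05 CPM on day 7. Its log2 fold change was 1.19 ± 0.31, or 0.95 ± 0.31 without that tumor.

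Among all genes with a mean of 5 CPM or more, those with the lowest unadjusted p included interferon genes on the lower side and sterol genes on the higher. Among the first 12 lower with all tumors were Dtx3l, H2-T24, Ddx60, Irf7, Phyh, H2-K2, Ctbs, Parp14, Atxn7l1, Sp100 and Trim26, and without day 3 replicate 1 Apol9b, Nmi, Oas3, Bst2, Oasl2 and Rnf213 came among the first 12. Phyh, which starts the alpha-oxidation of phytanic acid, was at 66.6, 42.4 and 40.7 CPM on day 3 and 27.01, 27.98 and 24.8 CPM on day 7. It was lower in all 3 day 7 tumors, with a log2 fold change of -0.91 ± 0.19, or -0.63 ± 0.16 without that tumor. Among the first 12 higher with all tumors were INADL, Kctd11, Srebf2, Ociad2, Fermt2, Idi1, Fads2, Nop10, Tpt1-ps3, Mmp10 and Fdps, where Tpt1-ps3 is a pseudogene whose reads cannot be told from its parent gene. Kctd11, an adaptor of cullin 3, was at 33.7, 41.2 and 38.6 CPM on day 3 and 90.7, 53.8 and 97.4 CPM on day 7, and INADL, the table's name for the tight junction scaffold PATJ, was at 6.72, 9.997 and 10.3 CPM on day 3 and 22.9, 15.97 and 21.1 CPM on day 7. The genes with the lowest unadjusted p without day 3 replicate 1 included Rps12 at 86.1, 16.8 and 21.1 CPM on day 3 and 106, 126 and 159 CPM on day 7, a ribosomal protein gene with many pseudogenes whose values are uncertain, and Rgma, a guidance molecule, at 31.02, 16.2 and 18.3 CPM on day 3 and 25.6, 25.7 and 26.4 CPM on day 7. In both, day 3 replicate 1 stood apart from the other day 3 tumors, and the log2 fold changes were 1.66 ± 0.54 and 0.24 ± 0.19 with it and 2.79 ± 0.39 and 0.59 ± 0.094 without it.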

How the data were processed

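The authors sequenced poly(A) RNA of the tumors as 100 base single-end reads, and per the study's methods and processing notes estimated transcript abundance with kallisto on the GRCm38 mouse reference. The deposited values are estimated counts per gene, whole numbers in 1 column per tumor without pooling, made by the authors by summing transcripts to genes, and the transcript set is not given in the sources used here. Kallisto divides reads shared by paralogs, so counts of near-identical genes are uncertain. Harvest day and replicate number came from the labels. Of 32544 entries, 9156 had no count and 1 was a date (at most 0.0268% of a tumor's counts, left out), and 31438 matched a mouse symbol. Totals were 23.7 to 31.9 mega-counts over the 15 tumors, and a count of 3, the limit that 0 counts allow, covers counting error only.

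Genes with more than about 8.68 to 11.7 counts, depending on the library, in at least 3 tumors were tested (15494). The main test was edgeR 4.0.16 in R 4.3.3, a quasi-likelihood fit of all 15 tumors by day with TMM factors and a two-sided F test of day 7 against day 3, with Benjamini-Hochberg adjustment over all genes and a threshold of 0.05. Each SE is the log2 fold change divided by the root of its F statistic. DESeq2 1.42.0 and limma 3.58.1 were alternatives, among 28 in all. Scripts were tested on simulated data. CPM use TMM-scaled library totals, with a prior count of 2 on the log2 scale. List levels are means of log2 CPM over the genes tested. Coordinates come from GENCODE on GRCm38 and promoters from RefSeq (11077 genes, 250 bases).

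The comparison and the 43 lists, written from general knowledge, were chosen with earlier results of these data known. Genes named are the 12 lower and 12 higher with the lowest unadjusted p at a mean of at least 5 CPM, with and without day 3 replicate 1, the 3 with the lowest unadjusted p and both ends of the fold changes in each list, and a set of fixed genes, some of which are not reported here. With 3 tumors a day, no exact test of single values could pass 0.05.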

Additional observations from a re-analysis of the deposited data

How the results depend on the processing

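The number of genes called moved with the tool. edgeR called 0 genes in the fit of all tumors, DESeq2 called 3260 and 90 without day 3 replicate 1, and limma voom with sample quality weights called 529. The cause was not tested. Leaving out single tumors gave from 0 to 2091 edgeR calls, where day 1 replicate 3 gave 58, day 3 replicate 3 gave 2091, day 7 replicate 2 gave 1 and the others gave 0. At an unadjusted p under 0.05 the 5502 genes became 2880 in a fit of the 6 tumors alone, 2341 in that fit without day 3 replicate 1, 2670 in DESeq2 without it, and from 2433 (without day 3 replicate 1) to 6828 (without day 3 replicate 2) with single tumors left out, 3306 without day 7 replicate 1 and 2946 without day 7 replicate 3. The median over all genes went from 0.020 to -0.0078 with upper-quartile factors. The 5119 genes without overlap became 8422 with no filter on low counts and from 5556 (without day 7 replicate 3) to 8155 (without day 7 replicate 2) with single tumors left out, where fewer tumors leave less room for overlap.

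Signs turned for 3 genes named above. Ccl2 was 0.18 in limma voom, 0.063 with the replicate block and from -0.42 to 0.36 with single tumors left out. Mrc1 was 0.24 in limma voom with quality weights, 0.32 in DESeq2 and 0.30 in the fit of the 6 tumors, both without day 3 replicate 1, and from -0.42 to 0.32 with single tumors left out. Vim was -0.092 with quality weights, -0.074 in DESeq2 and -0.093 in the fit of the 6 tumors, both without day 3 replicate 1, and from -0.074 to 0.31 with single tumors left out. Without day 7 replicate 2 the medians of the T cell and cytotoxic lists were -3.45 and -3.41, and the medians of the keratinocyte, p53 and oxidative stress lists, all near 0, changed sign under at least 1 alternative. The other genes named kept their sign under all 28 alternatives.

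Same-numbered day 3 and day 7 tumors had correlations of -0.17, -0.34 and 0.51 of their deviations from the mean of the day. Tumors of unlike number had correlations from -0.59 to 0.56. Deviations within a day sum to 0, so these values depend on each other and cannot decide whether replicate numbers paired the tumors. The replicate block gave 0 calls and 4731 genes at an unadjusted p under 0.05. Genes near the filter on low counts, such as those of muscle and fat on day 7, rest on few counts and their fold changes are the least certain.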
